A study of Mus musculus with 10 samples.

Results

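The genes described here are Trp53, which encodes the tumour suppressor p53, and 8 genes whose transcription p53 is known to activate: Mdm2, Cdkn1a, Ccng1, Trp53inp1, Phlda3, Sesn1, Eda2r and Zmat3. They were picked by symbol, each symbol occurs once in the gene table, and they make up 9 of its 54532 genes. Their RNA was measured by sequencing of poly-A RNA from mouse splenic B cells. The fibrosis group (5 libraries) came from mice made fibrotic by intraperitoneal carbon tetrachloride, CCl4, a solvent that injures hepatocytes, given over 4 weeks. The control libraries, also 5, are labelled as coming from wildtype mice. Whether the controls received a vehicle, the age and sex of the animals, how the B cells were isolated and whether each library is a separate animal are not stated in the labels. P-values therefore measure only how these libraries vary among themselves, part of which can be technical.

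p53 is a transcription factor that is held at a low level in unstressed cells because MDM2, itself the product of a p53 target gene, binds it and marks it for degradation. DNA damage and other stresses release it from MDM2, and it then activates genes that stop the cell cycle, repair DNA, lower oxidative stress or lead to cell death. Because p53 is controlled mainly as a protein, its mRNA level and the level of its activity need not move together. B cells use the pathway during development and in the germinal centre, where DNA is cut or mutated in the normal course of events.

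The promoters of Cdkn1a and Ccng1 are shown here because they hold a match to the DNA element through which p53 activates its targets, with the match in capitals. The element searched was the 20-base p53 consensus site, a pair of adjoining half-sites, with at most 1 mismatch outside the fixed C and G of each half-site. The consensus reads the same on both strands. RefSeq promoter windows (build GRCm38.p6) were found for 7 of the 9 members, as 9 windows, each taken over the 250 bases before a gene start. Trp53inp1 and Zmat3 were not among them.
Cdkn1a, chr17:29090729-29090978, plus strand: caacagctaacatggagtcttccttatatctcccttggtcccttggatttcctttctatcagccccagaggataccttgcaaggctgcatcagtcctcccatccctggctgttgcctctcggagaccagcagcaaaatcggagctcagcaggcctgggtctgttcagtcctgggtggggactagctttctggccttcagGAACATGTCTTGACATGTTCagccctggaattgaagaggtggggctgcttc
Ccng1, chr11:40755287-40755536, minus strand: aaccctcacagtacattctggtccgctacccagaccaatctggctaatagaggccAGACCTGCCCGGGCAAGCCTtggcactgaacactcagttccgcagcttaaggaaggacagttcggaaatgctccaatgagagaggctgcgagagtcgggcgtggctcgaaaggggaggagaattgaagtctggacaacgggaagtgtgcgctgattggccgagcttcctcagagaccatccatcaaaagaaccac

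The Cdkn1a match began 51 bases before the upstream of the gene's 2 RefSeq starts and 2841 bases before the downstream one. The Ccng1 match began 195 bases before the gene start. Both matches carried 1 mismatch to the consensus. The same search found a match in 19 of all 32851 windows (0.0578%) of this length. The windows of Trp53, Mdm2, Phlda3, Sesn1 and Eda2r and the downstream Cdkn1a window held no such match, which says only that these letters are not in those windows.

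Of the 9 genes, 8 passed the filter on low counts. In fibrosis, 3 rose (Sesn1, Zmat3 and Ccng1) and 2 fell (Phlda3 and Trp53) with edgeR's quasi-likelihood test (Benjamini-Hochberg adjusted p under 0.05 over all 14283 tested genes). Over those genes 35.7% passed, 18.6% as higher and 17.2% as lower, and the median log2 fold change was 0.04. The 8 genes had a median of 0.31. Without fibrosis 4 and 5, where 37.2% of tested genes passed, 3 members were higher and 1 was lower. Levels below are CPM, read counts scaled to a common library total with TMM factors, and fold changes are log2, fibrosis minus control. Total counts were 13439100 to 17069393 in fibrosis libraries and 15912080 to 17954551 in control libraries.

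B cell markers were detected in every library, with a summed level of 18800 to 27700 CPM in fibrosis and 15700 to 17800 CPM in control (exact two-sided permutation p = 0.00794, the smallest that 5 against 5 allows; adjusted p = 0.0238 over 9 marker lists, and 0.107 with library size only). Of the 14 markers 6 were called, all higher, where 35.7% of all tested genes were called. Cd74 alone was at 12250 CPM in fibrosis and 8299 CPM in control. Other cell types also left RNA in these libraries, and no marker on the 9 lists that was found in the table was at 0 in all of them. Erythroid markers summed to 1250 to 8640 CPM in fibrosis and 5420 to 8370 CPM in control (exact permutation, adjusted p = 0.0952), and 14 of the 19 tested were lower. The globin genes Hba-a1, Hba-a2, Hbb-bs and Hbb-bt and the gene Alas2 were not called. Of these Hba-a2, Hbb-bs and Hbb-bt lay the other way, at 1.20, 0.34 and 0.08. Platelet markers summed to 418 to 1690 CPM in fibrosis and 244 to 303 CPM in control, with 13 of 13 tested higher. Dendritic cell markers summed to 2060 to 3270 CPM in fibrosis and 1560 to 1780 CPM in control, with 9 of 14 higher. The highest on that list were Cst3, Irf8 and Ccr7, at means of 1148, 911 and 260 CPM in fibrosis. Xcr1 and Clec9a were at 26.5 and 22.7 CPM, so the sum mostly follows the highest genes. NK cell markers summed to 155 to 260 CPM in fibrosis and 117 to 192 CPM in control (7 of 12 higher), and plasma cell markers to 687 to 923 CPM in fibrosis and 641 to 799 CPM in control (2 of 9 higher and 1 lower). Macrophage markers, at 1360 to 5220 CPM in fibrosis and 1680 to 3130 CPM in control, had 1 of 14 higher and 1 lower, and neutrophil markers had none (0) of 14 called. Neutrophil markers were at 4076 and 4969 CPM in fibrosis 4 and 5, above every other library. The part of these cells in the results below was not tested beyond the fits named, and in bulk RNA a change in the share of a cell type and a change in RNA per cell cannot be told apart.

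**Figure D1:**
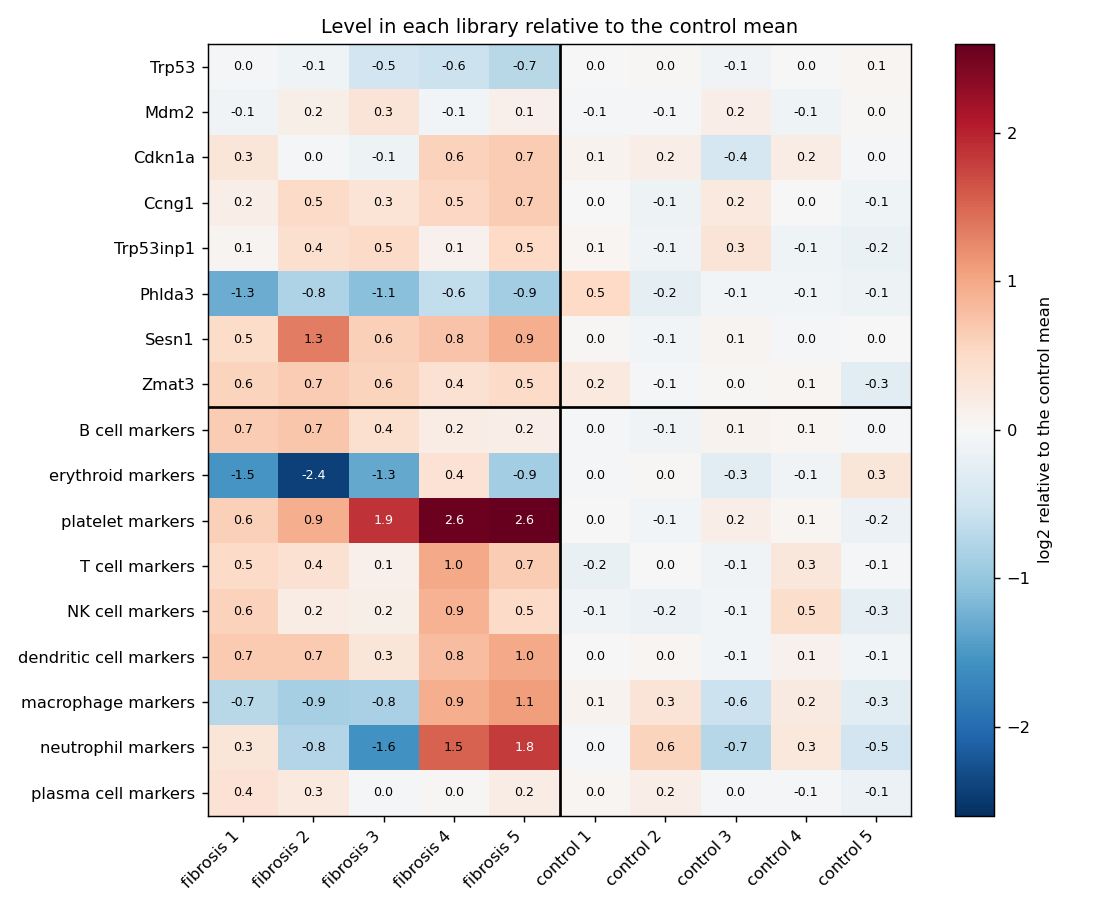
Level in each library (columns, fibrosis left of the line and control right of it) relative to the control mean, on the log2 scale, for the 8 tested p53 network members (upper rows, TMM-scaled CPM) and for the summed CPM of 9 cell type marker lists (lower rows). Sesn1 and Zmat3 are above and Phlda3 is below the control mean in every fibrosis library, while Trp53 is lowest in fibrosis 3, 4 and 5 and platelet markers are highest in fibrosis 3, 4 and 5. Among fibrosis libraries, B cell markers are lowest in fibrosis 3, 4 and 5.

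Trp53, on chromosome 11 (69580359 to 69591873, plus strand, GRCm38), was the most abundant member per length. It had 238, 228, 174, 168 and 149 CPM in fibrosis 1 to 5, against 248, 250.5, 229, 246 and 254 CPM in control 1 to 5. Fibrosis 1 lay within the range of the controls and fibrosis 2 just under it, while fibrosis 3, 4 and 5 lay well below, and by CPM the groups overlapped. Its mean was 191.5 ± 39.2 CPM in fibrosis libraries and 245 ± 9.81 CPM in controls (SD, n = 5 each), which is a log2 difference of -0.36 ± 0.12 (SE; edgeR, adjusted p = 0.0376). The spread between libraries was 20.5% of the mean in fibrosis and 4.00% in control.

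The call of Trp53 was close to the threshold. Without fibrosis 4 and 5 it was -0.19 (adjusted p = 0.146 by edgeR). Left out one at a time, control 1, 2, 4 or 5 also took the call away, with little change in size (-0.36 to -0.35, edgeR, adjusted p from 0.0673 to 0.0791). So did fibrosis 3, 4 or 5 (-0.34 to -0.28, edgeR, adjusted p from 0.0734 to 0.0850). Over the 22 alternatives of Trp53 the adjusted p-values spanned 0.00824 to 0.242 (edgeR, DESeq2 and limma). The 3 fibrosis libraries with the least Trp53 RNA were the 3 with the highest summed platelet markers, at 998, 1601 and 1689 CPM in fibrosis 3, 4 and 5. They also had the lowest summed B cell markers in fibrosis, at 22560, 19060 and 18750 CPM. Fibrosis 1 and 2 were at 26690 and 27700 CPM, and controls at 15700 to 17800 CPM. The part of either cell type in the Trp53 levels was not tested. The processed pseudogene Trp53-ps on chromosome 17 held 256 counts over the fibrosis libraries and 309 over the controls, 1.53% of the counts of Trp53. How reads that match both were assigned is not known.

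**Figure D2:**
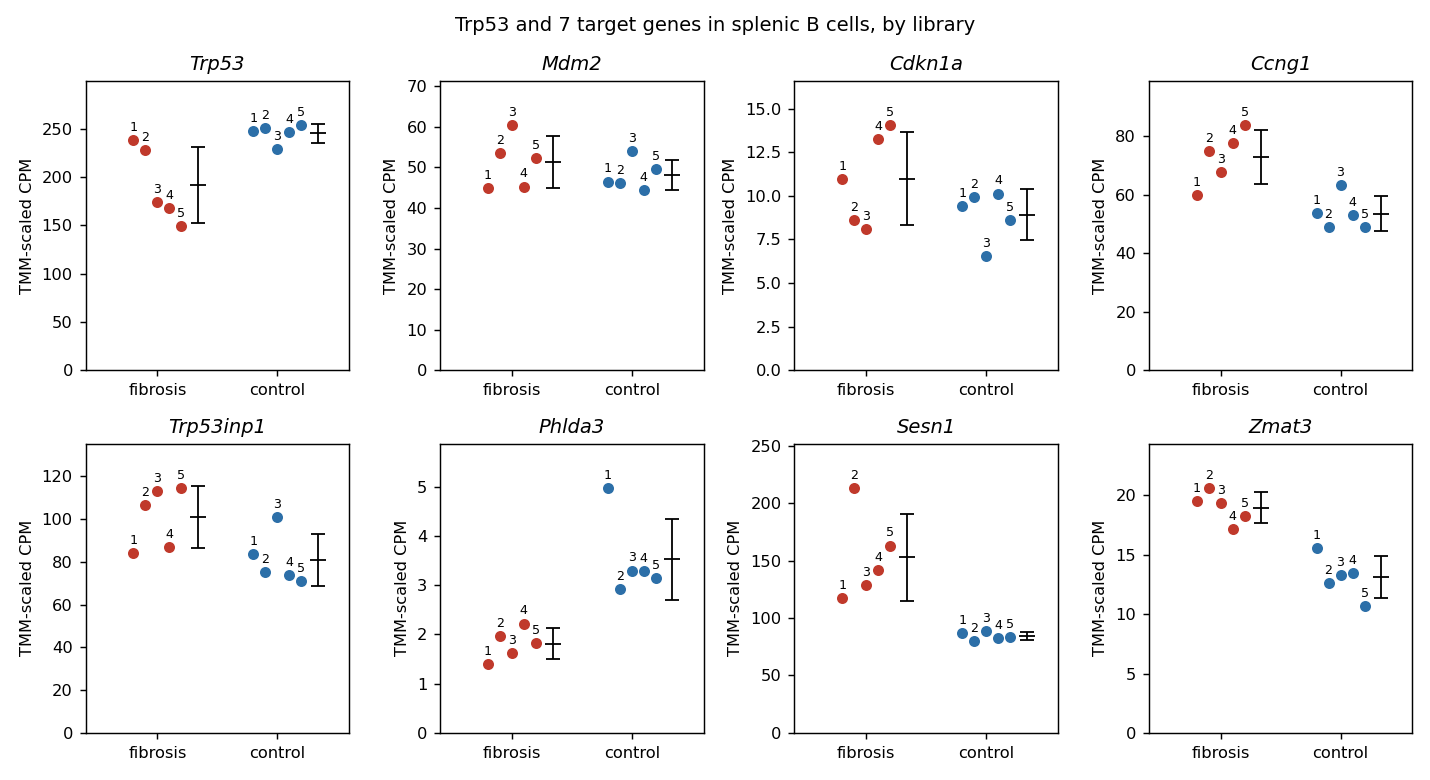
TMM-scaled CPM of Trp53 and its 7 tested targets in each library (points, numbered by replicate), fibrosis left of control in each panel; bars show mean ± SD of 5 libraries. The groups do not overlap for Sesn1, Zmat3 and Phlda3 and overlap for the other members. Over all tested genes they do not overlap in 25.4%.

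Mdm2 encodes the ubiquitin ligase that targets p53 for degradation and is the feedback arm of the pathway. It had 45.03, 53.6, 60.4, 45.3 and 52.4 CPM in fibrosis 1 to 5, against 46.5, 46.1, 53.9, 44.5 and 49.5 CPM in control 1 to 5. The groups overlapped throughout. The log2 change was 0.09 ± 0.10 with a 95% interval of -0.12 to 0.31 (adjusted p = 0.485 by edgeR), and it was -0.01 with scaling by library size only. A change beyond this interval is thus not seen, though a small one in either direction is within it.

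Cdkn1a encodes p21, the inhibitor of cyclin-dependent kinases through which p53 halts the cell cycle, and its promoter is shown above. It had 10.9, 8.62, 8.08, 13.2 and 14.05 CPM in fibrosis 1 to 5, against 9.40, 9.90, 6.54, 10.1 and 8.60 CPM in control 1 to 5. Fibrosis 4 and 5 were the highest of all libraries, and fibrosis 2 and 3 lay among the controls. The summed macrophage markers were also highest in fibrosis 4 and 5, at 4718 and 5219 CPM, against 1362 to 1491 CPM in fibrosis 1 to 3. Summed neutrophil, platelet, dendritic cell and T cell markers were highest in the same libraries. The part of these cells in the Cdkn1a levels was not tested. The log2 change was 0.30 ± 0.18 with a 95% interval of -0.09 to 0.69 (adjusted p = 0.215 by edgeR), and it was 0.06 without fibrosis 4 and 5 (adjusted p = 0.823). None (0) of its 22 alternatives passed.

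Ccng1, the cyclin G1 gene whose protein recruits a phosphatase to MDM2, also carries the p53 element in its promoter as shown. It had 59.9, 74.9, 67.7, 77.5 and 83.7 CPM in fibrosis 1 to 5, against 53.7, 48.8, 63.2, 53.1 and 48.9 CPM in control 1 to 5. Fibrosis 1 was the single fibrosis library below the highest control. The mean of 72.7 ± 9.20 CPM in fibrosis libraries and 53.5 ± 5.87 CPM in controls (SD, n = 5 each) gave a log2 difference of 0.44 ± 0.11 (edgeR, adjusted p = 0.00558). With the erythroid score as a covariate it was 0.34 (adjusted p = 0.310; its alternatives spanned 0.000568 to 0.310). Of the 2 members with a match in the windows searched, Ccng1 passed the test and Cdkn1a did not. Whether the changes of Ccng1 and Cdkn1a differ from each other was not tested.

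Trp53inp1 encodes a nuclear protein that promotes p53 activity and cell death. It had 84.1, 107, 113, 86.9 and 115 CPM in fibrosis 1 to 5, against 83.5, 75.2, 101, 73.9 and 71.1 CPM in control 1 to 5. Fibrosis 2, 3 and 5 were above every control, and fibrosis 1 and 4 were not. At 0.32 ± 0.12 it stood just outside the threshold (adjusted p = 0.0548 by edgeR). Without control 3, the highest control, it was 0.41 (adjusted p = 0.0151), and leaving out fibrosis 1 (0.38, adjusted p = 0.0262) or fibrosis 4 (0.37, adjusted p = 0.0315) also gave a call. It was 0.21 with library size only (adjusted p = 0.220) and 0.00 with the erythroid score as a covariate (adjusted p = 0.993), and 6 of 22 alternatives called it. Its alternatives spanned adjusted p-values of 0.0140 to 0.993 (edgeR, DESeq2 and limma).

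Sesn1 encodes sestrin 1, which lowers oxidative stress and restrains the growth kinase mTORC1. It is on chromosome 10 (41809935 to 41908424, plus strand). It had 117.5, 213, 128, 142 and 163 CPM in fibrosis 1 to 5, against 86.8, 79.8, 89.1, 82.2 and 83.2 CPM in control 1 to 5. Every fibrosis library was above every control, a separation found in 25.4% of all tested genes. The mean was 153 ± 37.9 CPM in fibrosis libraries and 84.2 ± 3.69 CPM in controls (SD, n = 5 each). This log2 change of 0.86 ± 0.14, or 1.81-fold, was the largest increase among the members (adjusted p = 0.000440 by edgeR).

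The increase of Sesn1 was 0.87 without fibrosis 4 and 5. Summed erythroid markers were 2291, 1250, 2668, 8641 and 3598 CPM in fibrosis 1 to 5. Sesn1 was highest in fibrosis 2 and 5. With the erythroid score of each library in the fit, the Sesn1 change was 0.44 ± 0.21 (edgeR, adjusted p = 0.232). Over its alternatives the adjusted p-values spanned 5.76e-10 to 0.232 (edgeR, DESeq2 and limma). The score is the mean log2 CPM of the erythroid markers, centred over the libraries. It was -0.772, -1.601, -0.575, 0.394 and -1.398 in fibrosis 1 to 5 and 0.581 to 1.079 in control. As the score did not overlap between the groups, this fit can hardly tell the score and the group apart. In that fit 1.80% of all tested genes and 0 members passed. The part of erythroid cells in the Sesn1 change was not tested beyond this fit.

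Zmat3, also known as Wig1, encodes a zinc finger protein that binds RNA and regulates splicing and mRNA stability. It had 19.5, 20.6, 19.3, 17.1 and 18.3 CPM in fibrosis 1 to 5, against 15.5, 12.6, 13.3, 13.5 and 10.7 CPM in control 1 to 5. The groups did not overlap, and the spread between fibrosis libraries, 6.98% of the mean, was the smallest of any member in that group. The mean of 18.97 ± 1.32 CPM in fibrosis libraries and 13.1 ± 1.73 CPM in controls (SD, n = 5 each) gave a log2 difference of 0.53 ± 0.11 (edgeR, adjusted p = 0.00267). It was 0.33 with the erythroid score as a covariate (adjusted p = 0.360; 0.000197 to 0.360 over its alternatives) and 0.60 without fibrosis 4 and 5.

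Phlda3 encodes a small pleckstrin homology protein that competes with AKT for membrane lipids and so restrains survival signalling. It moved against Sesn1, Zmat3 and Ccng1. It had 1.40, 1.97, 1.61, 2.22 and 1.82 CPM in fibrosis 1 to 5, against 4.97, 2.92, 3.30, 3.28 and 3.15 CPM in control 1 to 5. The groups did not overlap, although control 1 stood apart from the other controls. The log2 change was -0.97 ± 0.21, or 0.511-fold (adjusted p = 0.00334 by edgeR), on 138 counts over the fibrosis libraries and 316 over the controls. Without control 1 it was -0.81 (adjusted p = 0.0110), and with the erythroid score as a covariate it was -0.89 (adjusted p = 0.238; 0.000229 to 0.238 over its alternatives).

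Eda2r encodes a receptor of the tumour necrosis factor receptor family for ectodysplasin A2. It was too low to test, with 1, 0, 0, 1 and 0 counts in fibrosis 1 to 5 and 3, 3, 4, 1 and 0 counts in control 1 to 5. The sums were 2 counts in fibrosis and 11 in control, and the gene was not called in the fit with no filter on low counts.

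**Figure D3:**
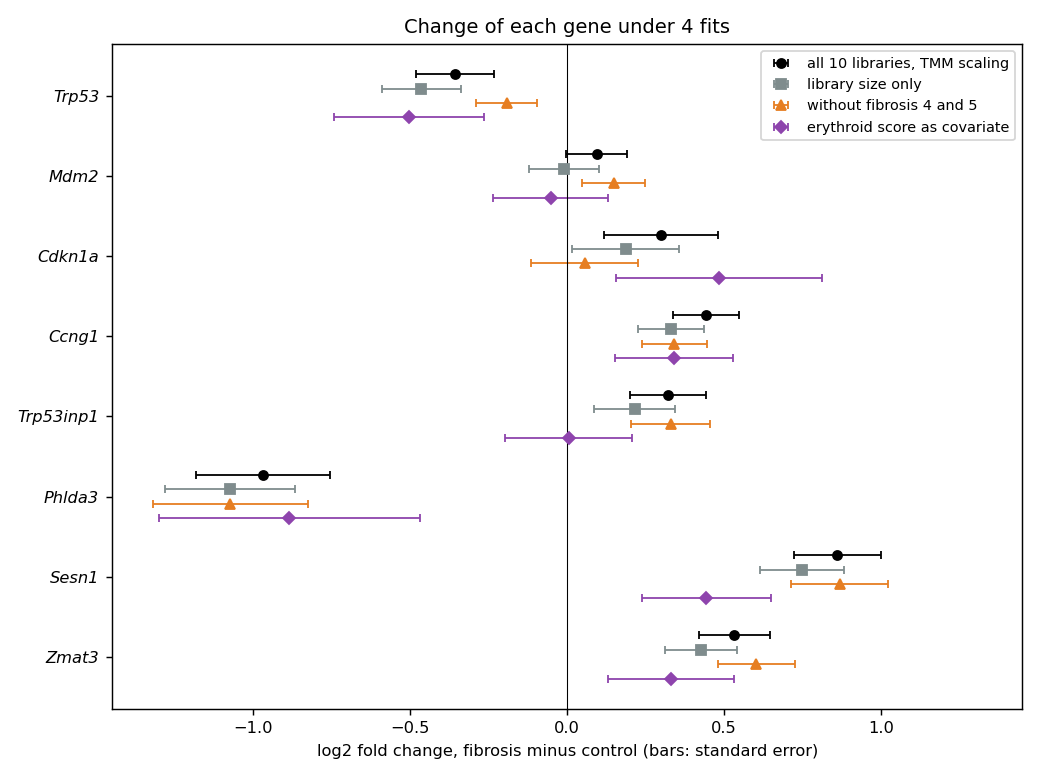
Log2 fold change, fibrosis minus control, with its standard error, for each tested member in the fit of all 10 libraries with TMM scaling, with library size only, without fibrosis 4 and 5, and with the erythroid score as a covariate. Sesn1, Zmat3 and Ccng1 are above 0 and Trp53 and Phlda3 below 0 in all 4 fits, while Mdm2 is below 0 in 2 of them and Trp53inp1 is at 0.00 with the covariate.

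Levels of different genes are compared per length on the deposited FPKM. In fibrosis the order was Trp53 (46.8 ± 10.8 FPKM), Sesn1 (37.7 ± 9.20), Ccng1 (20.4 ± 2.06), Trp53inp1 (15.4 ± 1.95), Mdm2 (9.94 ± 1.20), Cdkn1a (3.04 ± 0.686), Zmat3 (1.64 ± 0.142) and Phlda3 (1.14 ± 0.192). Trp53 and Sesn1 overlapped in that group, with lowest to highest values of 34.6 to 60.2 and 30.2 to 53.2 FPKM. In control Trp53 (60.6 ± 2.84) stood clear of Sesn1 (21.1 ± 0.827), and the order of the next genes was the same down to Cdkn1a (2.51 ± 0.421). At the low end the controls had Phlda3 (2.26 ± 0.536) above Zmat3 (1.15 ± 0.152), the opposite of the fibrosis libraries. Ccng1 and Trp53inp1 overlapped in control (13.9 to 17.7 and 11.01 to 15.4 FPKM), and so did Cdkn1a and Phlda3 (1.81 to 2.85 and 1.87 to 3.20 FPKM).

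A ratio taken within a library does not depend on how libraries are scaled. The Sesn1 to Trp53 ratio of FPKM was 0.501 to 1.11 with a median of 0.857 in fibrosis and 0.324 to 0.396 with a median of 0.339 in control, with no overlap. The Zmat3 to Trp53 ratio did not overlap either, at 0.0289 to 0.0433 in fibrosis and 0.0150 to 0.0221 in control. By level alone Sesn1 and Zmat3 did not overlap between the groups either. The ratios of Mdm2 to Trp53, 0.150 to 0.279 in fibrosis and 0.144 to 0.188 in control, overlapped. So did those of Phlda3 to Trp53, 0.0153 to 0.0343 in fibrosis and 0.0302 to 0.0520 in control. The ratios of Ccng1 to Trp53, 0.289 to 0.646 in fibrosis and 0.222 to 0.318 in control, overlapped too. The same held for Cdkn1a to Trp53 and Trp53inp1 to Trp53. These ratios are given without a test, and the share of all tested genes whose ratio to Trp53 does not overlap was not worked out.

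The genes that act on p53 did not move one way. Of 29 listed regulators 26 were tested, and 4 rose and 6 fell, or 38.5% against the 35.7% of all tested genes, with a median of -0.02. Mdm4, the MDM2 relative that blocks p53 transactivation, was at 0.27 ± 0.18 (adjusted p = 0.281 by edgeR), and the damage kinase gene Atm was at 0.33 ± 0.21 (adjusted p = 0.225; 0.55 and adjusted p = 0.0313 without fibrosis 4 and 5). The listed genes with the smallest p all fell. They were Ppp1r13l, which encodes the p53 inhibitor iASPP (-1.53 ± 0.18), the checkpoint kinase gene Chek2 (-1.005 ± 0.14), the histone H4 and p53 methyltransferase gene Kmt5a (-0.71 ± 0.10) and the p53 deubiquitinase gene Usp10 (-0.63 ± 0.11). Cdkn2a, which encodes p16 and the MDM2 inhibitor p19ARF in mice, was too low to test, with 63 counts over the fibrosis libraries and 39 over the controls. The homologues Trp63 (3 counts in each group) and Trp73 (38 in fibrosis and 17 in control) were too low as well.

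Further known p53 targets were read from 4 lists with 73 genes, of which 68 were tested. In them 13 rose and 15 fell, 41.2% against 35.7% of all tested genes, and the median was 0.03. Among 16 tested arrest and feedback genes 2 rose and 3 fell. Psrc1 (-1.33 ± 0.14), Gtse1 (-1.48 ± 0.19) and Ckap2 (-1.01 ± 0.16), which act in mitosis, fell, and Sfn, which encodes the checkpoint protein 14-3-3 sigma, rose by 0.73 ± 0.11. Btg2, an antiproliferative gene (-0.03 ± 0.10, adjusted p = 0.864 by edgeR), Gadd45a, a growth arrest gene (-0.27 ± 0.18, adjusted p = 0.247), and Ppm1d, the phosphatase gene that switches p53 signalling off (-0.20 ± 0.10, adjusted p = 0.162), did not pass. Without fibrosis 4 and 5 Gadd45a was at -0.54 (adjusted p = 0.0152).

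Apoptosis targets were split evenly, with 3 higher and 3 lower among 16 tested. Pmaip1, the gene of the BH3-only protein NOXA, rose by 1.15 ± 0.17 to 31.6 ± 8.34 CPM in fibrosis, against 14.3 ± 1.54 CPM in control (SD, n = 5 each; adjusted p = 0.000244 by edgeR). The inflammatory caspase gene Casp1 rose by 1.12 ± 0.15, and the death receptor gene Fas by 1.03 ± 0.25, or 0.65 without fibrosis 4 and 5. Pidd1, which encodes the scaffold of the caspase-2 platform, fell by 1.35 to 18.2 ± 3.20 CPM in fibrosis, against 46.8 ± 4.45 CPM in control (adjusted p = 1.40e-05), and the nuclease gene Aen fell by 0.49. The BCL2 family genes Bax (0.20 ± 0.10, adjusted p = 0.124) and Bbc3, the PUMA gene (0.09 ± 0.17, adjusted p = 0.729), did not pass. Summed T cell markers were at 122 to 220 CPM in fibrosis and 98.3 to 136 CPM in control (exact permutation, adjusted p = 0.0357). Of the 14 markers 4 were called, all higher, or 28.6% against 35.7% of all tested genes. They were Cd8a, Zap70, Lat and Tcf7, while Cd3d, Cd3e, Cd3g, Trac and Cd4 were among those that did not pass. The call of the summed T cell markers was lost in 8 of the 10 comparisons that left out 1 library. The sum lay in the same direction as Fas, Casp1 and the dendritic cell markers. Their part in these changes was not tested.

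Repair targets had 3 higher and 3 lower of 11 tested. Ddb2, a damage recognition gene of nucleotide excision repair, rose by 0.63 ± 0.15. The replication clamp gene Pcna fell by 0.84, the translesion polymerase gene Polh by 0.61 and the Fanconi anaemia gene Fancc by 0.43. With library size only, or without fibrosis 3 or control 1, 2, 4 or 5, 1 repair gene was higher in place of 3.

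Metabolism and growth targets had 5 higher and 6 lower of 25 tested. Ddit4, which like Sesn1 restrains mTORC1, rose by 1.10 ± 0.24 to 236 ± 91.8 CPM in fibrosis, against 110.5 ± 13.02 CPM in control (SD, n = 5 each; adjusted p = 0.00426 by edgeR; 0.47 with the erythroid score as a covariate). Sesn2, the close relative of Sesn1, was at -0.22 ± 0.10 (adjusted p = 0.0989; -0.33 and adjusted p = 0.0120 with library size only). The lipid transfer gene Pltp rose by 1.13 ± 0.14. The glutaminase gene Gls2 fell by 1.90 (0.57 with the erythroid score as a covariate), the thiamine transporter gene Slc19a2 by 0.97 and Prkab1, a subunit gene of the energy sensor AMPK, by 0.72.

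When p21 blocks the cyclin-dependent kinases, the DREAM complex represses cell cycle genes, which are therefore indirect p53 targets. All 25 listed DREAM-repressed genes fell, against 17.2% of all tested genes. The groups did not overlap in 24 of them, with Ccne2 as the exception, against 25.4% of all tested genes. The list was drawn up with a fall of cell cycle genes in these data already known. The changes ran from -1.63 ± 0.15 for the transcription factor gene Mybl2 to -0.62 ± 0.12 for the mitotic kinesin gene Kif23. Bub1b (-1.25 ± 0.11), Cdc20 (-1.30 ± 0.12) and E2f1 (-1.26 ± 0.11) lay between them. Cdkn1a itself, which feeds this arm, did not pass the test, with a 95% interval of -0.09 to 0.69. In the same comparison 14 of 19 erythroid markers were lower. The part of p53, of p21 or of erythroid cells in the fall of the DREAM-repressed genes was not tested. With the erythroid score as a covariate, where 1.80% of all tested genes passed, 7 of the 25 passed, Mybl2, Bub1b, Cdc20 and E2f1 among them. Of the called p53 regulators and targets named above from the other lists, Pidd1, Pmaip1 and Pltp passed in that fit and the rest did not. The T cell markers Lat and Tcf7 passed in it as well.

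**Figure D4:**
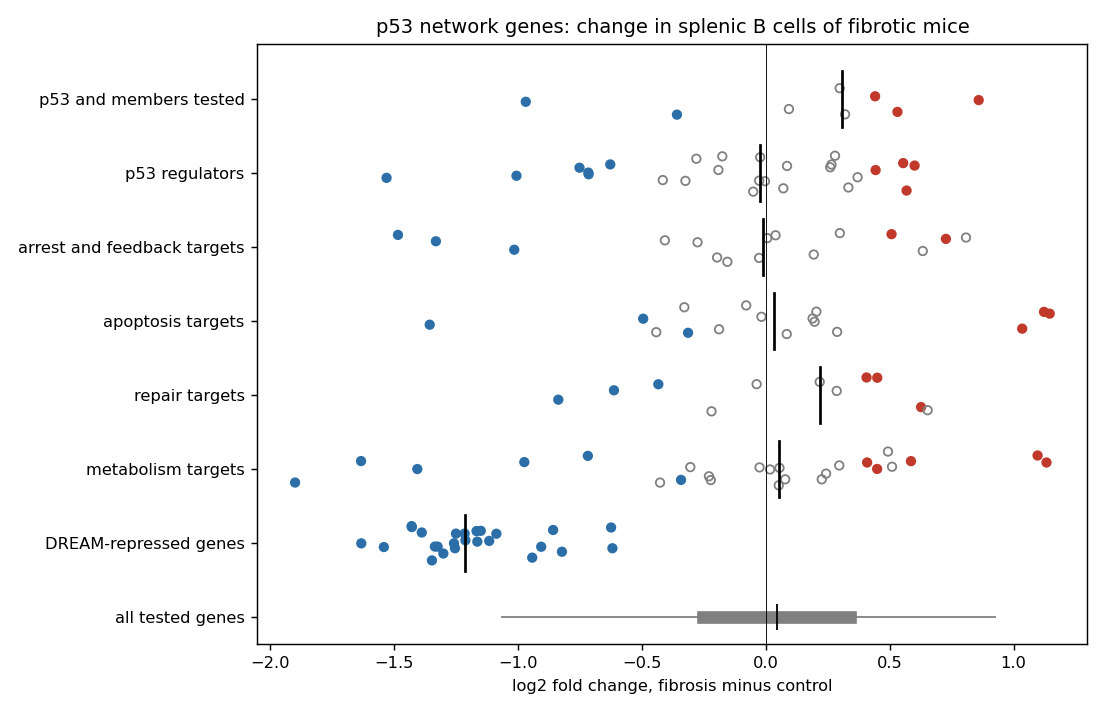
Log2 fold change, fibrosis minus control, of each tested gene in the p53 network lists (filled points passed an adjusted p under 0.05, red higher and blue lower; open points did not pass; black lines are list medians), with the median, quartiles and 5th to 95th percentiles of all tested genes in the lowest row. The 4 target lists have genes on both sides of 0, and the DREAM-repressed genes are all below 0.

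The genes whose levels were most like those of 4 members over the 10 libraries were sought among 8791 named protein-coding genes that averaged 10 CPM or more, by Pearson's r of log2 CPM. For Trp53 they were Sf3b4 (r = 0.994), Ddx24 (0.994) and Uba1 (0.989). After the group means were subtracted the same genes stood at 0.989, 0.987 and 0.979. These values pool both groups, and the genes were picked on the same libraries. They do not show whether the likeness held in each group. Mdm2 was most like Lats1 (0.973), Tnrc6a (0.973) and Wdr26 (0.972), Cdkn1a most like Fcgrt (0.971), Khk (0.968) and Abhd12 (0.967), and Ccng1 most like Tmed5 (0.989), Trim12c (0.987) and Ifi209 (0.987). No member was among the 3 nearest genes of these 4, which does not tell whether members move together. Cdkn1a, Phlda3 and Eda2r averaged too low to be among the genes searched. The coefficients above are the highest of many over few libraries, which share their cell make-up and depth, and are given as a description.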

How the data were processed

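Poly-A RNA of splenic B cells was sequenced in 5 fibrosis and 5 control libraries, grouped by the labelled disease state. Per the submitters' processing notes the genome build was GRCm38 (mm10); no source used here names the aligner, the counter or the strand setting, and reads of overlapping genes may be mixed. The authors deposited whole-number read counts per gene and FPKM (per gene length and library size). Counts were tested with edgeR 4.0.16 (R 4.3.3): filterByExpr kept 14283 genes with 99.9% of counts, TMM scaling, robust quasi-likelihood test, no covariate, Benjamini-Hochberg adjustment over all of them, with a gene called at an adjusted p under 0.05. Standard errors are the absolute log2 fold change over the square root of F. Marker lists were summed in CPM and compared with exact two-sided permutation p-values (252 assignments). Genes overlapping Cdkn1a and Sesn1 held few counts.

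The members, gene lists and tests were chosen with earlier results of these data known. The text names all members, the up to 4 lowest-p genes of each network list, and some well-known ones. Of the listed symbols, 1 was absent from the table. The alternatives were RLE, library size and TMM without immunoglobulin and haemoglobin genes, other filters, DESeq2 1.42.0, limma 3.58.1 (voom with quality weights, and log2 of FPKM plus 1 or 0.1, which understates changes of low genes), the replicate number as a block, an adjusted p under 0.01, leaving out libraries, and an erythroid score (mean log2 CPM of erythroid markers) as a covariate. The code was tested on simulated counts. Counting precision follows depth, and PCR reads are not independent molecules.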

Additional observations from a re-analysis of the deposited data

Results flagged for a closer look

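In a group of 5 libraries, a value was singled out where its gap to the nearest one exceeded 0.71 of the group's range, which chance alone gives in about 5% of groups. Among 34 groups (8 genes and 9 marker lists, in fibrosis and in control) 2 stood out. Phlda3 was at 4.97 CPM in control 1, where the next control was at 3.30 CPM, and its fall kept its call without that library. The summed NK cell markers were at 192 CPM in control 4, where the next control was at 133 CPM.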

How the results depend on the processing

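Sesn1, Zmat3, Ccng1 and Phlda3 kept their direction and their call under every alternative except the erythroid score as a covariate, where they were at 0.44, 0.33, 0.34 and -0.89. Their standard errors were 0.21, 0.20, 0.19 and 0.42 with that score, against 0.14, 0.11, 0.11 and 0.21 in the main fit. The score did not overlap between the groups, so a lost call there cannot be put down to erythroid RNA. The ranges of these genes without 1 library were 0.71 to 0.94, 0.46 to 0.60, 0.39 to 0.51 and -1.05 to -0.81. Trp53 was -0.45 to -0.28 without 1 library, -0.19 without fibrosis 4 and 5 and -0.50 with the erythroid score, and lost its call in 9 of 22 alternatives. Trp53inp1 passed with DESeq2 (0.31), with voom (0.36) and with the replicate block (0.32), and was 0.26 to 0.41 without 1 library, 0.21 with library size only and 0.00 with the erythroid score. Mdm2, not called in any fit, was at -0.01 with library size only and at -0.053 with the erythroid score. With log2 of FPKM plus 1 Zmat3 was 0.30 and Phlda3 -0.60. The cause of these shifts was not tested. The erythroid score left 136 genes higher and 121 lower, and 0 members higher and 0 lower. It left 0 regulators higher and 0 lower, 0 arrest and feedback targets higher and 0 lower, 1 apoptosis target higher and 1 lower, 0 repair targets higher and 0 lower, 1 metabolism target higher and 0 lower, and 7 DREAM-repressed genes lower. At an adjusted p under 0.01, 1547 genes and 1 repair target were higher and 1 member was lower. Members lower numbered 1 to 2 without 1 library and 1 without fibrosis 4 and 5. Regulators higher numbered 7 with voom and 8 without fibrosis 4 and 5, and regulators lower numbered 11 with library size only. Apoptosis targets lower numbered 5 with library size only. Repair targets higher numbered 1 with library size only and with FPKM, and 1 to 4 without 1 library. Scaling by library size only moved the median of all genes to -0.06 from 0.04 with TMM. Summed marker differences, fibrosis minus control, were 4699 CPM for B cell and 42.4 CPM for T cell markers with library size only (adjusted p = 0.107 and 0.0714 by exact permutation). Without 1 library they were 39.9 to 64.3 CPM for T cell, -4238 to -2390 CPM for erythroid, 41.2 to 70.1 CPM for NK cell and -227 to 737 CPM for macrophage markers. The labels do not say that replicate numbers pair libraries. Deviations of same-numbered libraries correlated at 0.105, 0.393 and 0.240 for numbers 1, 3 and 4, which were also each other's best match, and at -0.119 and -0.228 for numbers 2 and 5, so pairing was not assumed. With the replicate block 2677 genes were higher and 2534 lower, and 4 members were higher and 2 lower. Eda2r, Cdkn2a, Trp63 and Trp73 were too low for the main filter and were not called where an alternative kept them.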
